A study of Rattus norvegicus with 12 samples.

Results

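The 9 genes described here, Mx1, Isg15, Ifit2, Ifit3, Irf7, Irf9, Stat2, Rsad2 and Usp18, are interferon-stimulated genes and regulators of the interferon response. They were picked by symbol from 14506 genes measured in the rat uterus. Each was read by 1 probe set that carries no other gene symbol. Their NCBI Gene identifiers are 24575 for Mx1, 298693 for Isg15, 294091 for Ifit2, 309526 for Ifit3, 293624 for Irf7, 305896 for Irf9, 288774 for Stat2, 65190 for Rsad2 and 312688 for Usp18. The values that singled them out are those of rats given estradiol against rats given vehicle, so that difference is described without a test.

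Uterine RNA came from 12 young adult female Lewis rats, all ovariectomized, with 1 array per rat and 3 rats in each of 4 groups. The vehicle group received DMSO. The E2 group received 17β-estradiol, the main ovarian estrogen, at 4 µg/kg/d. The 3-MC group received 3-methylcholanthrene, a polycyclic aromatic hydrocarbon that activates the aryl hydrocarbon receptor, at 15 mg/kg/d. The fourth group, E2+3-MC, received both agents. Dosing ran for 3 days and the uterus was taken 24 h after the last dose. The whole organ was profiled, so fewer cells of a type and less RNA per cell cannot be told apart.

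Interferons are secreted proteins that signal through cell-surface receptors and Janus kinases to the STAT proteins. For type I interferon, phosphorylated STAT2 acts with IRF9 in the complex ISGF3, which binds interferon-stimulated response elements and switches on antiviral genes. IRF7 then amplifies interferon production, while USP18 dampens the receptor and removes ISG15 from its target proteins. In the uterus, interferon-stimulated genes are best known from early pregnancy, when they are induced in the endometrium.

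Promoter sequence from RefSeq, build GRCr8, was at hand for 6 of the 9 genes: Mx1, Ifit3, Irf7, Irf9, Stat2 and Rsad2. Bases are numbered from the start site that the table gives for each gene, with -1 the base just before it. That start is not always the outermost one annotated. The 250 bases before it lie wholly before the gene for Ifit3, with 0 bases inside the gene's outermost bounds, but 250 of 250 lie inside those bounds for Irf7 and Irf9, 125 for Rsad2, 93 for Mx1 and 65 for Stat2. The stretches with a match to an interferon-responsive motif are shown because these are the sequences through which the pathway is known to act. Capitals mark the match. The Ifit3 stretch is chr1:241527076-241527325 on the plus strand and is the whole 250 bases before the gene, the Irf7 stretch is chr1:205800073-205800102 on the minus strand, the Rsad2 stretch is chr6:48788248-48788277 on the minus strand and the Irf9 stretch is chr15:33065726-33065755 on the plus strand.
Ifit3: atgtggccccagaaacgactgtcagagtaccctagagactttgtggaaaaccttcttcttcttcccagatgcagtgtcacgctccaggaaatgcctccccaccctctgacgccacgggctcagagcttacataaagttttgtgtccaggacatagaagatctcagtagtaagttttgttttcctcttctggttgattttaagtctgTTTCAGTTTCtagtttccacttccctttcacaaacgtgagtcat
Irf7: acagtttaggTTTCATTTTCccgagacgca
Rsad2: ctggttcaacTTTCATTTTCagaaaacaga
Irf9: gaccacgtgatTTCTAGGAActgcacctcc

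The core of the interferon-stimulated response element was searched as GAAA, any 2 bases (NN) and GAAA, on both strands, in the 250 bases before each of these starts. It was found in 3 of the 6 genes, against 3.41% of all 33469 promoter windows of that length. The matches are TTTCATTTTC at -69 to -60 in Irf7, TTTCAGTTTC at -44 to -35 in Ifit3 and TTTCATTTTC at -147 to -138 in Rsad2, of which the Irf7 match lies inside the gene's outermost bounds and the other 2 before them. The gamma-activated site, TTCNNNGAA, which reads the same on both strands, was found in Irf9 alone of the 6, as TTCTAGGAA at -99 to -91, and in 7.67% of all windows. The estrogen response element, GGTCA, any 3 bases (NNN) and TGACC, a palindrome, was in 0 of the 6 and in 0.0239% of all windows. The xenobiotic response element core, GCGTG or CACGC, the letters the aryl hydrocarbon receptor is known to bind, was in Ifit3 at -173 to -169 and in Stat2 at -68 to -64, and in 25.9% of all windows. None of these matches overlaps another. A match of letters is a description of the sequence, and none of these windows was measured in these rats. In the annotation Ifit2 and Ifit3 are neighbouring genes, with no other protein-coding gene between them.

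The deposited intensities had array medians between 86.3 and 124, and the number of arrays, 3 per group, limits the precision. The array of vehicle rat 1 stood apart, its log2 values having an interquartile range of 3.13, while the other 11 arrays had 2.16 to 2.72. Uterine and Müllerian identity genes such as Hoxa11 and Esr1 were above the limit for dim genes in every group (6 of 7 were measured). All fitted differences are in log2(intensity + 16), a scale that makes changes of dim genes look smaller than they are. A gene was called when its limma p, after Benjamini-Hochberg adjustment across all 10154 genes tested, was under 0.05.

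Without 3-MC, 8 of the 9 genes had higher mean levels in the E2 rats than in the vehicle rats, from 5.57-fold for Mx1 to 1.27-fold for Irf9, and Rsad2 stayed near the bottom of the scale. The estradiol response was tested in the rats given 3-MC, whose arrays play no part in the first difference. There Mx1, Isg15, Ifit3, Irf7, Usp18, Stat2 and Ifit2 rose in E2+3-MC rats over 3-MC rats, by 6.59-fold to 2.23-fold. Members and gene lists were chosen with earlier results of these data known, and the standard errors used the arrays of all groups. The limma p-values and counts for E2+3-MC against 3-MC are thus not fully independent of that choice. Adding 3-MC, with or without estradiol, moved no member past the test.

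STAT2 is the member of the STAT family specific to the interferon complex ISGF3. Stat2 intensity in vehicle rats 1, 2 and 3 was 289.7, 144 and 118, and in E2 rats it was 495, 323 and 388. In 3-MC rats it was 189.6, 137 and 203, and in E2+3-MC rats it was 427, 400.3 and 412. All rats given estradiol, with or without 3-MC, lay above all rats not given it. Among 3-MC-treated rats the rise was 1.17 ± 0.26 on the log2 scale (SE, n = 3 per group; limma adjusted p = 0.008736), or 2.26-fold. Without 3-MC the E2 minus vehicle difference was 1.14.

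IRF9 is the DNA-binding subunit of ISGF3. Irf9 intensity was 816, 403 and 332 in vehicle rats, 827, 497 and 559 in E2 rats, 492, 368 and 563 in 3-MC rats, and 679, 703 and 716 in E2+3-MC rats. Vehicle rat 1 lay above E2 rats 2 and 3, so those groups overlapped, while the E2+3-MC rats were all above the 3-MC rats. The difference between E2+3-MC and 3-MC was 0.56 ± 0.28, with a 95% interval of -0.03 to 1.16, and did not pass (limma adjusted p = 0.2832). It passed when only these 2 groups entered the fit (limma adjusted p = 0.02081) and without vehicle rat 1 (limma adjusted p = 0.03067). E2 minus vehicle was 0.34, and ran from 0.09 without vehicle rat 3 to 0.72 without vehicle rat 1.

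IRF7 is the transcription factor that drives the later wave of interferon production and is itself interferon-induced. Irf7 intensity was 286, 122 and 100.6 in vehicle rats and 709.8, 488 and 576 in E2 rats. In 3-MC rats it was 133, 134 and 236, and in E2+3-MC rats 615, 644 and 559.7. The lowest estradiol-treated rat exceeded the highest rat without estradiol. Its rise in E2+3-MC over 3-MC was 1.81 ± 0.30 (limma adjusted p = 0.0007039), or 3.50-fold, beside 1.83 for E2 minus vehicle. By value, Irf7 had the largest difference of the 3 regulators with and without 3-MC, and Irf9 the smallest.

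**Figure D1:**
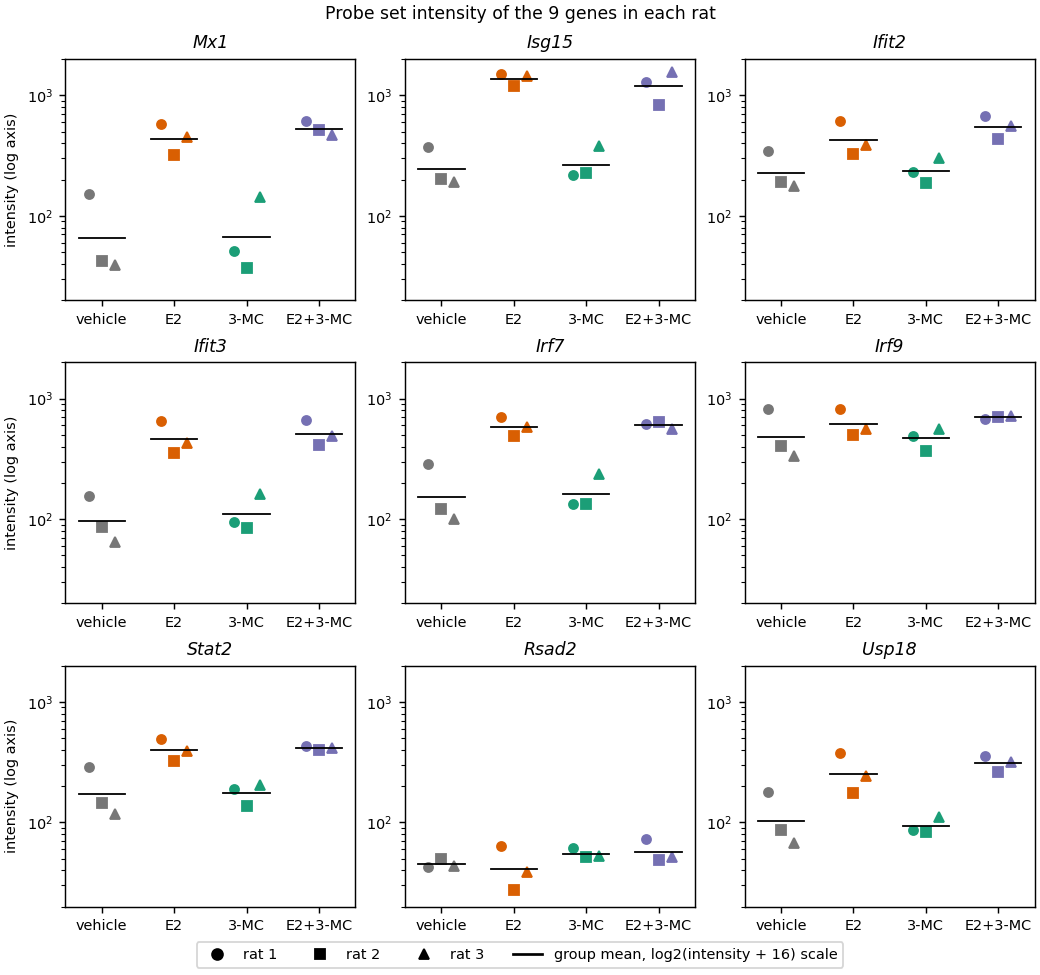
Probe set intensity of the 9 genes in each rat on a log axis, by group, with a symbol per rat and a line at the mean of log2(intensity + 16). Mx1, Isg15, Ifit3, Irf7 and Stat2 separate all 6 rats given estradiol from all 6 rats not given it. The share of all genes doing so was not counted. For 3 rats against 3 it was 10.1% in E2 over vehicle and 25.6% in E2+3-MC over 3-MC. The E2 and vehicle rats were in view when the members were chosen, so the separation is a description. Rsad2 lies between 27.5 and 73.1 in all 12 rats.

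ISG15 is a ubiquitin-like protein that is attached to other proteins after interferon, and USP18 is the protease that removes it. Isg15 intensity was 375, 202 and 191 in vehicle rats and 1517, 1190.3 and 1439 in E2 rats. It was 217, 228 and 377 in 3-MC rats and 1291, 829.7 and 1553 in E2+3-MC rats. Every rat given estradiol was above every rat without it, and E2+3-MC rat 2 was the lowest of those given it. The rise in E2+3-MC over 3-MC was 2.09 ± 0.28 (limma adjusted p = 9.446e-05), or 4.26-fold. E2 minus vehicle was 2.42.

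Usp18 intensity was 180.1, 86.3 and 66.8 in vehicle rats, 377, 176 and 241 in E2 rats, 87.1, 83.4 and 111 in 3-MC rats, and 352, 264 and 316 in E2+3-MC rats. Vehicle rat 1 lay just above E2 rat 2, so the groups without 3-MC overlapped, whereas the groups with 3-MC did not. Usp18 rose by 1.57 ± 0.29 in E2+3-MC over 3-MC (limma adjusted p = 0.002158), or 2.97-fold. E2 minus vehicle was 1.18, and ran from 0.91 without E2 rat 1 to 1.55 without vehicle rat 1.

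Mx1 encodes a dynamin-like GTPase that blocks viral replication. Mx1 intensity was 151, 42.1 and 39.4 in vehicle rats and 51.4, 36.8 and 143 in 3-MC rats. It was 573, 323 and 449.6 in E2 rats and 608, 519.8 and 470 in E2+3-MC rats. The lowest rat given estradiol was thus well above vehicle rat 1 and 3-MC rat 3, the highest of the rats not given it. The rise in E2+3-MC over 3-MC was 2.72 ± 0.40 (limma adjusted p = 0.0002287), with a 95% interval of 1.88 to 3.56. Its mean levels in vehicle and 3-MC rats, 6.34 and 6.37, lay under the limit of 6.44 for dim genes, so Mx1 entered the test through the groups given estradiol; with no filter on dim genes the limma adjusted p was 0.0005606. E2 minus vehicle was 2.48. By value, Mx1 had the largest difference of the 9 genes with and without 3-MC on the deposited scale.

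IFIT2 and IFIT3 are tetratricopeptide-repeat proteins of a family that acts against viral RNA. Ifit3 intensity was 156, 86.2 and 64.3 in vehicle rats, 647, 353 and 424 in E2 rats, 94.7, 84.2 and 163 in 3-MC rats, and 664, 414 and 489 in E2+3-MC rats. Estradiol-treated rats did not overlap the others. Ifit3 rose by 2.07 ± 0.30 in E2+3-MC over 3-MC (limma adjusted p = 0.000206), or 4.21-fold, beside 2.08 for E2 minus vehicle.

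Its neighbour Ifit2 had smaller differences by value. Ifit2 intensity was 342, 192 and 178 in vehicle rats, 609, 328 and 388 in E2 rats, 230.5, 188 and 304 in 3-MC rats, and 674, 430.5 and 559 in E2+3-MC rats. Vehicle rat 1 lay above E2 rat 2, and the groups with 3-MC were separate. The rise in E2+3-MC over 3-MC was 1.15 ± 0.28 (limma adjusted p = 0.01322), or 2.23-fold, and E2 minus vehicle was 0.86. Ifit2 no longer passed without any one of 3-MC rat 1, 3-MC rat 2, E2+3-MC rat 1 or E2+3-MC rat 3, with differences of 1.00 to 1.14 and limma adjusted p from 0.05446 to 0.09394. Stat2 no longer passed without 3-MC rat 2, at 1.02 (limma adjusted p = 0.07057). The difference between Ifit3 and Ifit2 was not tested.

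Rsad2 encodes viperin, a radical SAM enzyme that makes a chain-terminating nucleotide, and is usually strongly interferon-induced. Rsad2 intensity was 42.8, 49.2 and 43.2 in vehicle rats, 63.0, 27.5 and 38.8 in E2 rats, 60.9, 51.2 and 52.3 in 3-MC rats, and 73.1, 48.7 and 51.4 in E2+3-MC rats. Its mean lay under the limit of 6.44 on the log2 scale below which 30% of genes were left out, so it was not tested. From a fit without that filter, E2+3-MC minus 3-MC was 0.05 ± 0.21 with a 95% interval of -0.39 to 0.49, and the sign changed when each array was centred on its median (-0.01). E2 minus vehicle was -0.09, and 0.08 after quantile normalization.

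Of the 8 members tested in E2+3-MC against 3-MC, 7 were called higher, where 6.82% of all genes tested were. The members were chosen with earlier results of these data known, so this count is not a fully independent test. Over all genes 693 were called higher and 141 lower, a split of 1339 to 1454 after quantile normalization and 1249 to 574 after centring on the median. The same 7 members were called under both scalings, with Mx1 at 2.75 and 2.66, Isg15 at 1.88 and 2.03, and Ifit2, the least of the 7, at 1.01 and 1.10. In 8 of the 9 genes all E2+3-MC rats lay above all 3-MC rats, a pattern shown by 25.6% of genes tested. The median over the 9 genes was 1.57, and over all genes tested 0.08. For E2 minus vehicle the median over the 9 was 1.18 against -0.11 over all genes, and 5 of the 9 genes had no overlap, as 10.1% of genes tested did in that direction. That contrast chose the members, so nothing is read from its counts. When a rat was left out, E2 minus vehicle ran from 2.20 to 3.00 for Mx1, 2.25 to 2.71 for Isg15, 1.84 to 2.39 for Ifit3 and 1.56 to 2.25 for Irf7, the lowest without vehicle rat 3 and the highest without vehicle rat 1. E2+3-MC minus vehicle, which shares the vehicle rats, ran from 0.26 for Rsad2 and 0.53 for Irf9 to 2.75 for Mx1.

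**Figure D2:**
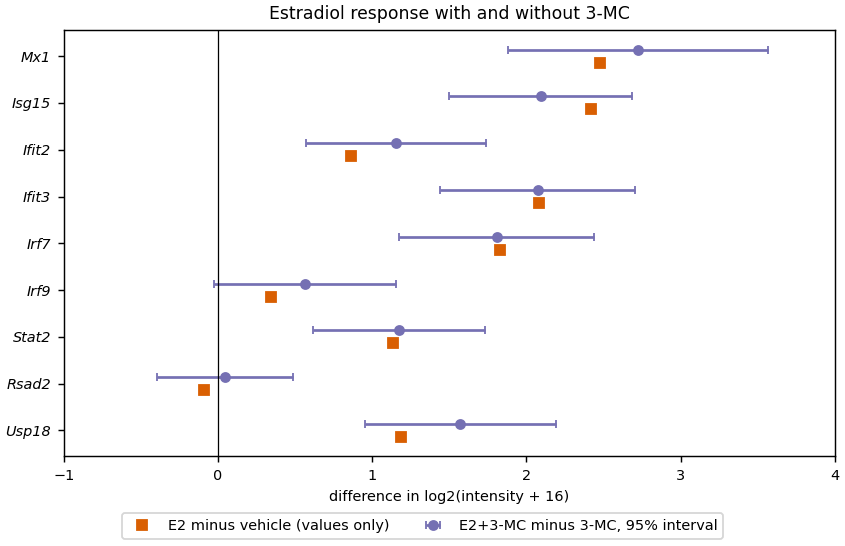
Differences in log2(intensity + 16) for the 9 genes, E2+3-MC minus 3-MC with 95% intervals (circles) and E2 minus vehicle as values only (squares). Mx1 lies furthest to the right in both, at 2.72 and 2.48, and the intervals of Irf9 and Rsad2 take in 0.

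The 3-MC comparison asked whether the aryl hydrocarbon receptor ligand changed these genes by itself. Without estradiol, 3-MC minus vehicle ran from -0.12 for Usp18 to 0.16 for Ifit3 among the members tested, each with a limma adjusted p of 0.9999. Of the 8 tested, 0 were called by limma and 0 had an unadjusted p under 0.05. Over all genes 0% were called, with 82 of 10154 at an unadjusted p under 0.05. The 95% intervals still allow sizeable shifts, from -0.82 to 0.87 for Mx1, -0.48 to 0.71 for Isg15, -0.56 to 0.70 for Irf7 and -0.54 to 0.58 for Stat2. For Rsad2 the 3-MC rats all lay above the vehicle rats, which 2.56% of genes tested showed, with a difference of 0.21 and a 95% interval of -0.23 to 0.65. The sign depended on the rats. Without vehicle rat 1, Mx1 stood at 0.54, Irf7 at 0.49 and Usp18 at 0.25, each with a limma adjusted p of 0.85, and 1 member of 8, Irf7, had an unadjusted p under 0.05 (0.03113). Mx1 stood at -0.45 without 3-MC rat 3, and without vehicle rat 3 Irf7 stood at -0.20 and Usp18 at -0.37.

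With estradiol present, E2+3-MC minus E2 ran from -0.21 for Isg15 to 0.34 for Ifit2 among the members tested, with limma adjusted p from 0.7164 to 0.9794. Again 0 of 8 were called by limma, 0 had an unadjusted p under 0.05, and 0% of all genes were called, with 938 at an unadjusted p under 0.05. The 95% intervals were -0.57 to 1.11 for Mx1, -0.80 to 0.38 for Isg15, -0.24 to 0.93 for Ifit2 and -0.50 to 0.62 for Stat2. Rsad2, untested, stood at 0.35 with an interval of -0.09 to 0.79. All genes tested had a median of 0.15 in this comparison on the deposited scale, 0.01 after quantile normalization and -0.05 after centring, beside 0.19, 0.08 and -0.01 over the 9 members.

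The interaction asked whether the estradiol response differed with and without 3-MC. It ran from -0.33 ± 0.40 for Isg15 to 0.39 ± 0.41 for Usp18, with limma adjusted p from 0.9764 to 0.9953. Of the 8 members tested, 0 were called by limma and 0 had an unadjusted p under 0.05. Over all genes 0% were called and 299 had an unadjusted p under 0.05. With an SE of 0.57 for Mx1, its 95% interval of -0.95 to 1.44 leaves room for a sizeable difference, and a p that misses the threshold does not show equal responses.

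**Figure D3:**
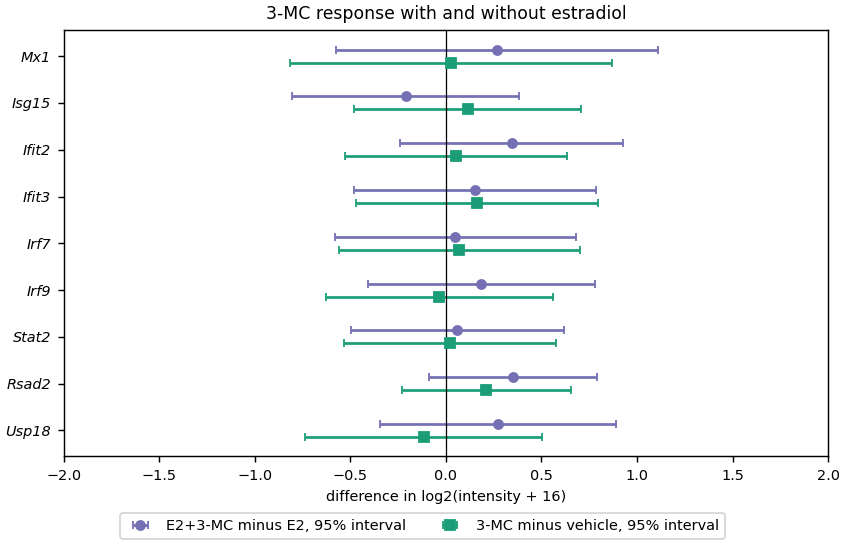
Differences in log2(intensity + 16) for 3-MC minus vehicle (squares) and E2+3-MC minus E2 (circles), with 95% intervals, for the 9 genes. Every interval takes in 0, the widest being that of Mx1.

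The rats of a group differed from each other at most members at once. Vehicle rat 1 was the highest vehicle rat for 8 of the 9 genes, as it was for 81% of genes tested. After quantile normalization it was the highest for 9 of 9, against 40% of genes. E2 rat 2 was the lowest E2 rat for 9 of 9 before and after quantile normalization, against 68.6% and 35.1% of genes. Among 3-MC rats, rat 3 was the highest for 8 of 9 on both scales, against 37.5% and 32.4%. The Mx1 level of vehicle rat 1 lay 1.04 above its group mean on the log2 scale, and that of 3-MC rat 3 lay 0.94 above its own. In E2+3-MC rats the spread was smallest for Irf9, Stat2 and Irf7, with SDs of 0.037, 0.045 and 0.10, against 0.66, 0.63 and 0.73 in vehicle rats. It was nearly the same for Isg15, 0.46 against 0.51, and wider for Rsad2, 0.25 against 0.083. Vehicle rat 1 adds to the vehicle SDs of all but Rsad2.

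**Figure D4:**
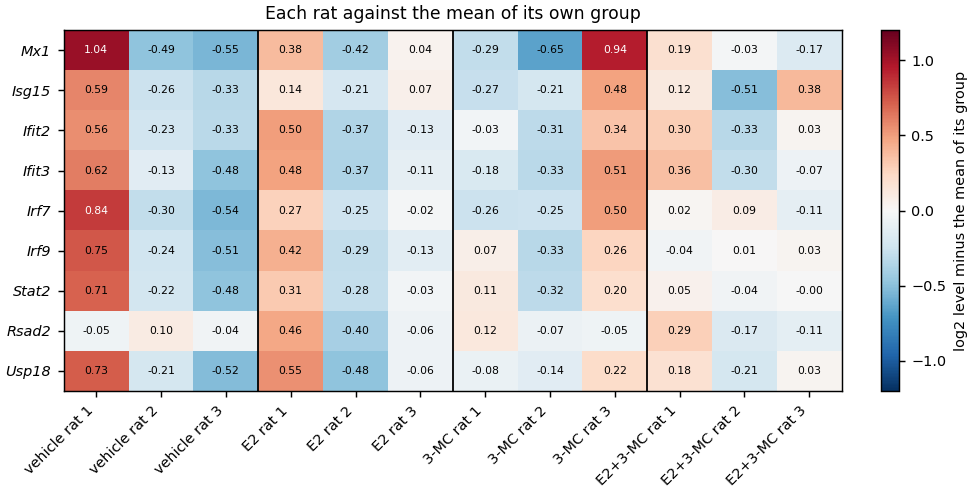
Each cell gives a rat's log2(intensity + 16) minus the mean of its own group, for the 9 genes (rows) and 12 rats (columns), red above and blue below the mean. Vehicle rat 1 and 3-MC rat 3 are above their groups at every gene but Rsad2, with Mx1 at 1.04 and 0.94.

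Most markers of macrophages and monocytes moved in the same direction as the members. The mean log2 level of 15 such markers was 8.54, 7.23 and 7.27 in vehicle rats 1, 2 and 3, and 7.36, 7.25 and 8.01 in 3-MC rats. It was 8.84, 8.26 and 8.52 in E2 rats and 8.57, 8.43 and 8.75 in E2+3-MC rats. The rats without estradiol that had the highest member levels, vehicle rat 1 and 3-MC rat 3, were thus also those with the highest macrophage marker levels. This was not particular to macrophages. After quantile normalization both rats were also the highest of their groups for T, NK and B cell markers, at 6.45 and 6.42. The same held for dendritic cell markers, at 7.40 and 7.29. For epithelial markers vehicle rat 1 was the highest of its group, but 3-MC rat 1 was in the 3-MC group. Of 14 tested in E2+3-MC against 3-MC, 8 rose, led by Cd68 at 1.57, Fcgr1a at 1.48 and Cd86 at 1.40, and 0 fell. Of all genes tested, 6.82% were called higher. Cd86 and Itgam, among those that rose, had means under the limit for dim genes in vehicle and 3-MC rats. They thus entered the test through the groups given estradiol. Cd163 was dim and not tested. By value it stood at -0.49 in E2 minus vehicle, with all E2 rats lower, and at 0.09 in E2+3-MC minus 3-MC. The part of macrophage content in the members' differences was not tested.

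Epithelial markers rose as well, 6 of 11 tested, with 1 lower. The mean level of all 12 measured ran from 7.97 to 8.33 in 3-MC rats and from 8.79 to 9.51 in E2+3-MC rats. Neutrophil markers rose in 3 of 4 tested. Of the 7 measured, 5 had means under the limit for dim genes in 3-MC rats and 2 in E2+3-MC rats. The 3 that rose were among those under it in 3-MC rats, so they entered the test through the groups given estradiol. Stromal markers rose in 2 of 9 (Mme at 1.61 and Col1a1 at 1.36), smooth muscle markers in 2 of 7 (Des at 1.22 and Actg2 at 1.08) and adipocyte markers in 1 of 5 (Adipoq at 3.04). Of 3 mast cell markers 1 rose, Kit at 1.34. The other 2, Gata2 at -0.59 and Cpa3 at -0.33, were lower by value and not called. Of 8 endothelial markers 0 were called by limma, 5 had an unadjusted p under 0.05, and all 8 were lower by value, with a median of -0.52. Dendritic cell markers include those of the plasmacytoid cells known for making interferon, and share Bst2 and Irf8 with the pathway lists. Of 7 tested, 0 were called by limma and 3 had an unadjusted p under 0.05. These 3 were Bst2 at 0.82 and Irf8 at 0.69, both higher, and Clec9a at -0.51, lower. The mean level of all 9 measured was 7.12 to 7.31 in 3-MC rats and 7.33 to 7.40 in E2+3-MC rats. After quantile normalization the groups overlapped, at 7.22 to 7.29 in 3-MC rats and 7.28 in each E2+3-MC rat. Among T, NK and B cell markers 1 of 6 tested rose, the pan-leukocyte gene Ptprc at 1.36. The shares of these cells were not measured, and their part in the members' differences was not tested. Beside these marker counts, 6.82% of all 10154 genes tested were called higher and 141 genes lower. An unadjusted p under 0.05 was found for 2036 genes.

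Beyond the 9 genes, 91 others from lists of the interferon pathway were tested in E2+3-MC against 3-MC, and 43 rose and 0 fell, with a median of 0.76 against 0.08 over all genes. Of all 10154 genes tested, 6.82% were called higher and 141 genes lower. The lists, like the members, were chosen with earlier results of these data known. After quantile normalization, 69 of all 99 pathway genes tested rose, where 50 had on the deposited scale, and Ifitm1, Oas1f and Pias1 fell, by 0.37, 0.48 and 0.46. These 3 were named after their values were seen. Over all genes tested, 1339 were called higher and 1454 lower under that normalization. Counts depended on single rats: 25 of 98 tested rose without 3-MC rat 2 and 31 of 99 without E2+3-MC rat 3. Over all genes tested, 333 were called higher without 3-MC rat 2 and 375 without E2+3-MC rat 3. Of 12 ligand genes listed, 5 were measured and 4 tested, so most ligands were not read. Of the 4 tested, 0 were called by limma and 0 had an unadjusted p under 0.05. Ifna4 and Ifna5, type I interferon genes, had differences of -0.28 ± 0.19 (limma adjusted p = 0.4838) and -0.23 ± 0.18 (limma adjusted p = 0.5716).

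Among receptors 2 of 4 tested rose, Ifngr1, a chain of the interferon-gamma receptor, by 1.14 and Il10rb, shared by interleukin-10 and interferon-lambda receptors, by 1.07. Of the kinases and STATs, Stat2 was the 1 of 4 tested that rose. The interferon regulatory factors had 3 of 7 that rose, Irf7, then Irf5 by 1.02 and Irf1 by 0.97. Nucleic acid sensors and adaptors rose in 5 of 11, led by Zbp1, a sensor of Z-form nucleic acids, at 2.06 and Tlr7, the endosomal receptor for single-stranded RNA, at 1.68. Dhx58, a RIG-I-like helicase, followed at 1.10 and Tlr3, the receptor for double-stranded RNA, at 0.96.

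In the ISG15 pathway 5 of 6 rose. Besides Isg15 and Usp18 these included Uba7, its activating enzyme, at 1.40 and Ube2l6, its conjugating enzyme, at 1.33. Antiviral effectors rose in 12 of 22 tested, led by Mx1, Ifit3, the oligoadenylate synthetase-like Oasl2 at 1.81 and the second Mx GTPase Mx2 at 1.62. Other interferon-induced genes rose in 18 of 26, led by Slfn4 at 2.56, Epsti1 at 2.24, the receptor transporter Rtp4 at 1.70 and Ifi27l2b at 1.66. In antigen presentation 4 of 10 rose, the immunoproteasome subunits Psmb8, Psmb9 and Psmb10 by 1.28, 1.14 and 1.01 and the peptide transporter Tap1 by 0.73. Of 6 inhibitors of interferon signalling tested, Usp18 alone rose. All these calls are by limma at the threshold above, by which 6.82% of all genes tested were called higher.

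**Figure D5:**
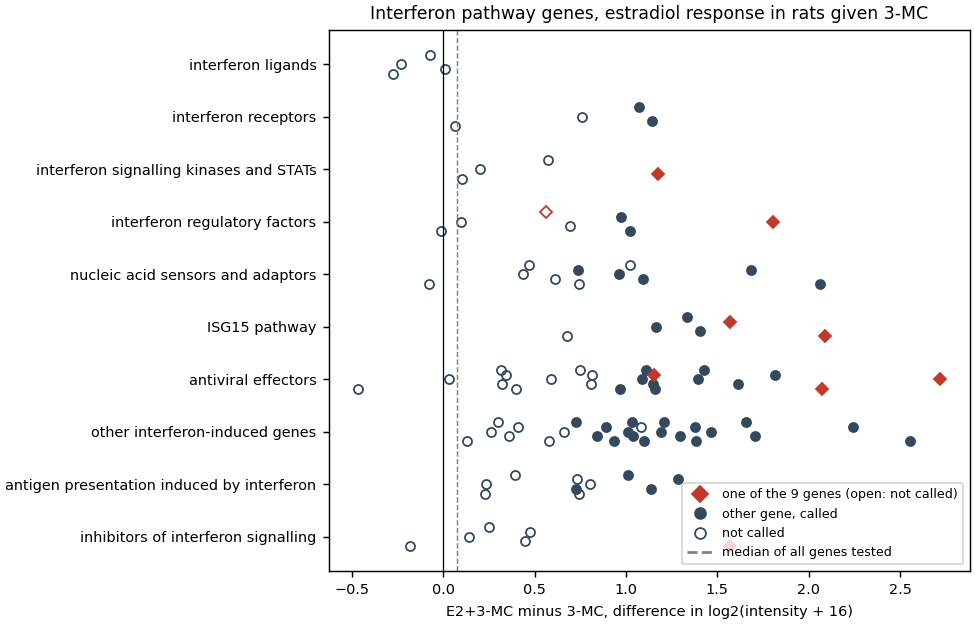
Difference in log2(intensity + 16) between E2+3-MC and 3-MC rats for each pathway gene tested, by list, with filled symbols for genes called by limma, open symbols for others, diamonds for the 9 genes and a dashed line at the median of all genes tested, 0.08. The 4 ligand genes lie left of the dashed line, and the ISG15 pathway lies wholly to its right.

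3-MC called 0 of the 99 pathway genes without estradiol, by limma, and 0 had an unadjusted p under 0.05. With quantile normalization 5 had one, all higher and with a limma adjusted p of 0.8428 (Eif2ak2, Herc6, Phf11, Sp100 and Sp140), and 8 had one without vehicle rat 1, and again 0 were called. With estradiol present it called 0 as well, and 3 had an unadjusted p under 0.05. These 3, named like the 5 above after their values were seen, were the guanylate-binding protein Gbp5 at 0.80, the chemokine Cxcl10 at 0.57 and Ifnb1 at 0.45. Gbp5 passed when only the E2 and E2+3-MC groups entered the fit (limma adjusted p = 0.03181) and without vehicle rat 1 (limma adjusted p = 0.0421). In the interaction 0 of the 99 were called by limma, and Gbp5 was the 1 gene with an unadjusted p under 0.05.

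Over the 12 arrays, the genes outside the 9 whose level was most like the mean standardised level of the 9 were Tlr7, Cd53, Dhx58, Ifi44l and Pik3ap1. Their Pearson correlations were 0.987, 0.986, 0.985, 0.985 and 0.984, and their Spearman correlations 0.979, 0.986, 0.993, 0.993 and 0.993. Ifi44l is interferon-induced, Cd53 is a leukocyte tetraspanin and Pik3ap1 is a signalling adaptor of B cells and macrophages. Tlr7, Dhx58 and Ifi44l were on the pathway lists. The 12 points share treatment groups and each array's scale, so these values describe likeness over these rats and carry no test.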

How the data were processed

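Biotin-labelled cRNA of 12 uteri was read on Affymetrix arrays, per the labels. The deposited values are linear probe set intensities, for which the submitters' processing notes name Affymetrix Expression Console and PLIER. The settings, any normalization between arrays and the build were not given in the sources used here. Of 29214 probe sets, 15310 carry 1 symbol, 323 several and 13581 none. Where a gene had more than 1 probe set (527 genes), that with the highest mean was kept, leaving 14506 genes.

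The members and gene lists were chosen with earlier results of these data known. Intensities were transformed as log2(intensity + 16), and the 30% of genes with the lowest mean (limit 6.44) were left out. A limma 3.58.1 model (R 4.3.3; 1 mean per group, all 12 arrays, lmFit and eBayes, 8 residual and 8.92 prior degrees of freedom) gave two-sided p-values, adjusted by the Benjamini-Hochberg method over 10154 genes and called under 0.05. Intervals are 95% and use the moderated standard error. The procedure was tested on simulated data. The 3 rats per group are labelled as separate animals.

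Named were all members, up to 4 called genes with the largest change per list (or 2 by value where none was called), the largest called markers and the 5 genes most like the members. Hoxa11 and Esr1 are named as examples of identity markers. Markers named because they lay under the limit, were lower or were not called were named after their values were seen. Further exceptions are marked in the text. Alternatives were quantile normalization, centring on array medians, an offset of 1, no filter on dim genes, the compared groups alone, trend and robust variance, the mean over probe sets, rat number as a block, and leaving out each rat.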

Additional observations from a re-analysis of the deposited data

How the results depend on the processing

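Mx1, Isg15, Ifit3, Irf7 and Usp18 were called in E2+3-MC minus 3-MC under all 20 alternatives run, and no called value changed sign. The number of members called ranged from 5 without 3-MC rat 2 to 8 without vehicle rat 1, pathway genes called from 25 to 69 and all genes called from 413 to 2177, each with the same rats left out. All genes called in that comparison, 834 on the deposited scale, fell to 495 without 3-MC rat 1, 489 without E2+3-MC rat 1 and 442 without E2+3-MC rat 3. They rose to 2793 with quantile normalization, 1823 with median centring and 2271 with only the groups compared. In E2+3-MC minus E2 the count of all genes, 0 by limma with 938 at an unadjusted p under 0.05, became 1 with quantile normalization (Postn), 2 with median centring (Postn and Dnajc14), 144 with only the groups compared and 3 with trend and robust variance (Postn, Angpt1 and Ctnnd2), and it ranged from 0 to 111 (without vehicle rat 1) when a rat was left out. Pathway genes called there became 1 (Gbp5) with only the groups compared, and ranged from 0 to 1 when a rat was left out. In 3-MC minus vehicle, all genes called ranged from 0 to 1 (Hba-a3, without vehicle rat 2) when a rat was left out. The median of the 9 members in E2 minus vehicle ranged from 0.93 without vehicle rat 3 to 1.55 without vehicle rat 1. The causes were not tested. Rat numbers are shared between groups, and the deviations of same-numbered rats from their group means correlated between -0.27 and 0.24 over 18 pairs. In none of the pairwise comparisons made here were all 3 pairs over 0.1 (0.07, 0.14 and 0.08 for E2+3-MC and 3-MC), so rat number was not taken as a pairing. E2 and 3-MC, not compared with each other though both enter the interaction, had all 3 over 0.1, at 0.24, 0.16 and 0.17. With rat number as a replicate block, 7 members, 61 pathway genes and 1140 genes in all were called in E2+3-MC minus 3-MC, and no member's call changed in any comparison. The interaction needs all groups, so it was not run with only the groups compared. Dimness limits Rsad2, which was never tested except without the filter.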
